A study of Saccharomyces cerevisiae with 24 samples.

Results

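NMD2 and NSP1 are 2 intron-containing yeast genes whose nascent RNA was read as more spliced after nuclear removal of the RNA-binding protein Nab2. They were chosen by gene identifier (YHR077C and YJL041W) because their change in one time course stood high among the genes measured, so that time course is described here without a test. They are 2 of 53 genes in the files of the deletion strains, 2 of 59 genes in the files of the anchor-away time course and 2 of 194 introns found in long reads. The higher fraction was seen in the time course that chose the genes. In the long reads, made at 10 min, neither gene was called between the strains, and both Nab2-AA libraries of NSP1 lay below both Control-AA libraries, as its SMIT level at 10 min did. That direction was the common one: the fitted odds of a spliced long read were lower in Nab2-AA for 147 of 194 introns.

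Splicing of most yeast introns can take place while RNA polymerase II is still transcribing the gene. NMD2 (also called UPF2) encodes a core factor of nonsense-mediated decay, the cytoplasmic pathway that destroys mRNAs with premature stop codons, and its product bridges Upf1 and Upf3. NSP1 encodes an FG-repeat nucleoporin of the central channel of the nuclear pore. Nab2 is a zinc-finger protein that binds poly(A) in the nucleus and takes part in mRNA packaging and export.

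The 24 samples were libraries of RNA taken from chromatin and depleted of poly(A). Single Molecule Intron Tracking (SMIT) marks the 3′ end of a nascent RNA, and so the position of the polymerase, and reads with a gene-specific primer whether the intron upstream has been removed. SMIT was run in npl3Δ, tho2Δ, gbp2Δ, rtt103Δ, pub1Δ and htz1Δ strains (each a KanMX deletion) and in the wild type, with 2 libraries each; all are MATa his3Δ1 leu2Δ0 met15Δ0 ura3Δ0 and untreated. SMIT was also run in Nab2-AA and Control-AA before and 10 and 30 min after rapamycin (1 ug per ml) was added, with 1 library per strain and time, and long reads were made from both strains at 10 min with 2 libraries each. Both anchor-away strains carry tor1-1, an fpr1 deletion and RPL13A-2xFKBP12, which make them insensitive to the drug and give the ribosomal anchor. Nab2-AA alone carries NAB2-FRB, which rapamycin binds to the anchor, and it is MATα where Control-AA is MATa, so mating type and tag cannot be told apart. No measurement of Nab2 itself is used here, and whether replicates came from separate cultures is not stated, so p-values measure the spread between libraries.

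Each library of the deletion series held 699678 to 2839057 SMIT reads past the 3′ splice site, and each of the time course 1263469 to 1640980. Long-read libraries held 32107 and 11485 alignments in Nab2-AA, against 10042 and 14264 in Control-AA. Over all long reads that spanned an intron, 65.7% and 65.8% were spliced in Nab2-AA, against 74.5% and 76.3% in Control-AA. In the same order of strains, 25.6% and 25.8% of these reads ended beyond the gene, against 12.8% and 13.2%.

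Both genes have a short intron that lies almost at the start of the coding sequence and is followed by 1 long coding exon. Coordinates are those of sacCer3 (R64), and introns were found here from alignment gaps. The NMD2 intron is 113 nt long (chromosome VIII, 255638 to 255750, minus strand, within the gene at 252374 to 255756), with 6 coding nt before it and 3264 after it. The NSP1 intron is 118 nt long (chromosome X, 365785 to 365902, plus strand, within the gene at 365784 to 368373), with 1 coding nt before it, so the start codon is split by the intron, and 2471 coding nt after it. Short first exons were common, with 50 of 194 introns having at most 10 coding nt before them. Long second exons were rare: the median was 442 nt, and 11 of 194 introns had more than 2000 nt after them. The median intron was 291 nt long, more than the length of either of these introns. SMIT reads lie in the second exon in both genes, and their 3′ ends reached 656 to 1300 nt past the 3′ splice site in NMD2 and 669 to 1917 nt in NSP1. Most ends lay far nearer, with median positions per library of 76 to 203 nt in NMD2 and 65 to 218 nt in NSP1.

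The level used for SMIT is the position-averaged fraction spliced: reads were placed in bins of 30 nt, bins with at least 10 reads in every library of a series were kept, and the level is the plain mean over bins. In Nab2-AA the level of NMD2 was 0.782 at 0 min, 0.850 at 10 min and 0.918 at 30 min. In Control-AA it was 0.827, 0.781 and 0.779 at the same times. Nab2-AA thus began below Control-AA and ended above it. The 95% counting intervals, which cover read sampling only, were 0.911 to 0.924 in Nab2-AA at 30 min and 0.758 to 0.800 in Control-AA at 30 min. The change from 0 min was 0.136 in Nab2-AA and -0.0479 in Control-AA at 30 min, a difference of changes of 0.184 (counting interval 0.146 to 0.221). At 10 min the difference of changes was 0.114 (0.0756 to 0.153).

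NSP1 followed another course. Its level in Nab2-AA was 0.733 at 0 min, 0.750 at 10 min and 0.794 at 30 min. In Control-AA it was 0.821, 0.809 and 0.791. At 0 min the level in Nab2-AA minus that in Control-AA was -0.0884 (counting interval -0.114 to -0.0625) and at 30 min it was 0.00267 (-0.0193 to 0.0246). The difference of changes of NSP1, 0.0911 at 30 min (0.0571 to 0.125), therefore combined a change of 0.0612 in Nab2-AA with one of -0.0299 in Control-AA, from unequal starting levels. At 10 min it was 0.0288, with a counting interval from -0.00567 to 0.0633 that included 0. Of 57 genes, 42 had a lower level in Nab2-AA than in Control-AA at 0 min, and NSP1 had the 5th lowest and NMD2 the 19th lowest difference. The plot of levels over time shows the crossing of NMD2 and the convergence of NSP1.

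**Figure D1:**
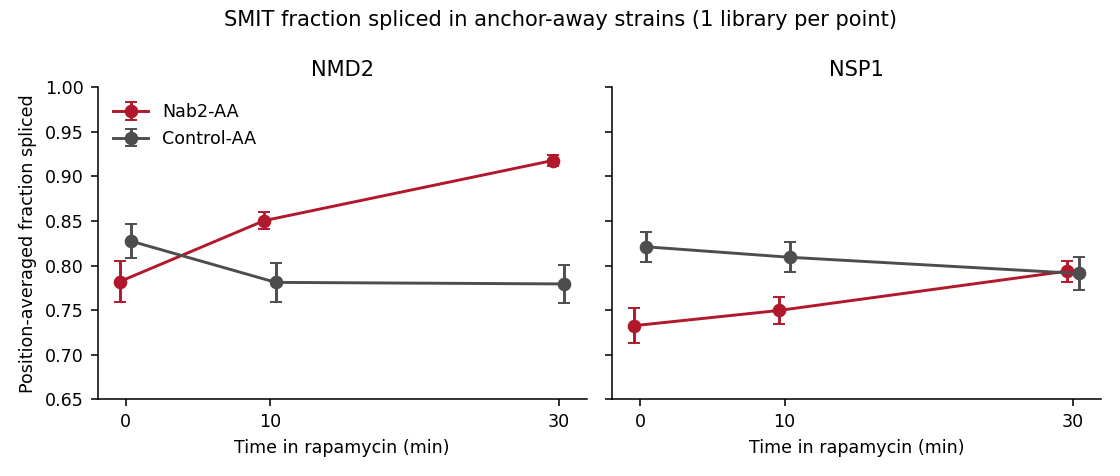
Position-averaged SMIT fraction spliced (y axis, no unit, axis from 0.65) against minutes in rapamycin for NMD2 and NSP1. Points are single libraries of Nab2-AA and Control-AA, and bars are 95% counting intervals; NMD2 ends at 0.918 in Nab2-AA and 0.779 in Control-AA, and NSP1 at 0.794 and 0.791.

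Among the 57 genes ordered by the difference of changes at 30 min, NMD2 stood at place 2 and NSP1 at place 5. SAC6 (fimbrin) stood above NMD2 with 0.324, and IST1 and NYV1 lay between both genes with 0.172 and 0.119. MAF1 (0.0815) and UBC4 (0.0542) came directly below NSP1. The median over 57 genes was -0.00892 at 30 min and -0.0320 at 10 min. Both genes were above 0 at both times, as were 12 of 57 genes (21.1%), and since this contrast chose the genes nothing is read from that count. The values have no replicate check.

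The change of NMD2 in Nab2-AA was uneven along the gene. For RNA 3′ ends in the first 30 nt past the 3′ splice site, the fraction spliced in Nab2-AA was 0.341, 0.709 and 0.810 at 0, 10 and 30 min. In Control-AA it was 0.628, 0.594 and 0.556. The lowest of these 6 values, that of Nab2-AA before rapamycin, lay far under all others. From 121 to 240 nt the fraction in Nab2-AA was 0.723, 0.815 and 0.919, against 0.762, 0.719 and 0.733 in Control-AA. From 61 to 120 nt, where NMD2 was already mostly spliced, it was 0.939, 0.915 and 0.968 in Nab2-AA, against 0.905, 0.882 and 0.846 in Control-AA. The difference of changes at 30 min was thus 0.541 in the first window, 0.0888 from 61 to 120 nt and 0.225 from 121 to 240 nt. Without the first 30 nt the position-averaged difference of NMD2 at 30 min was 0.160 (an alternative chosen after seeing the data).

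NSP1 changed by like amounts over most of the positions. Its differences of changes at 30 min were 0.108, 0.0821, 0.117, 0.0802 and 0.0940 in the windows from 1 to 30, 31 to 60, 61 to 120, 121 to 240 and 241 to 480 nt. In the last window, 481 to 960 nt, the difference was -0.0240, with as few as 46 reads in a library. In the first 30 nt the NSP1 fraction in Nab2-AA was 0.564, 0.557 and 0.624 at 0, 10 and 30 min, against 0.713, 0.743 and 0.665 in Control-AA. Both genes had their lowest fraction in the first 30 nt in 6 of 6 time-course libraries. Neither profile climbed steadily: the fraction from 121 to 240 nt was under that from 61 to 120 nt in both genes, as the position plot shows.

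**Figure D2:**
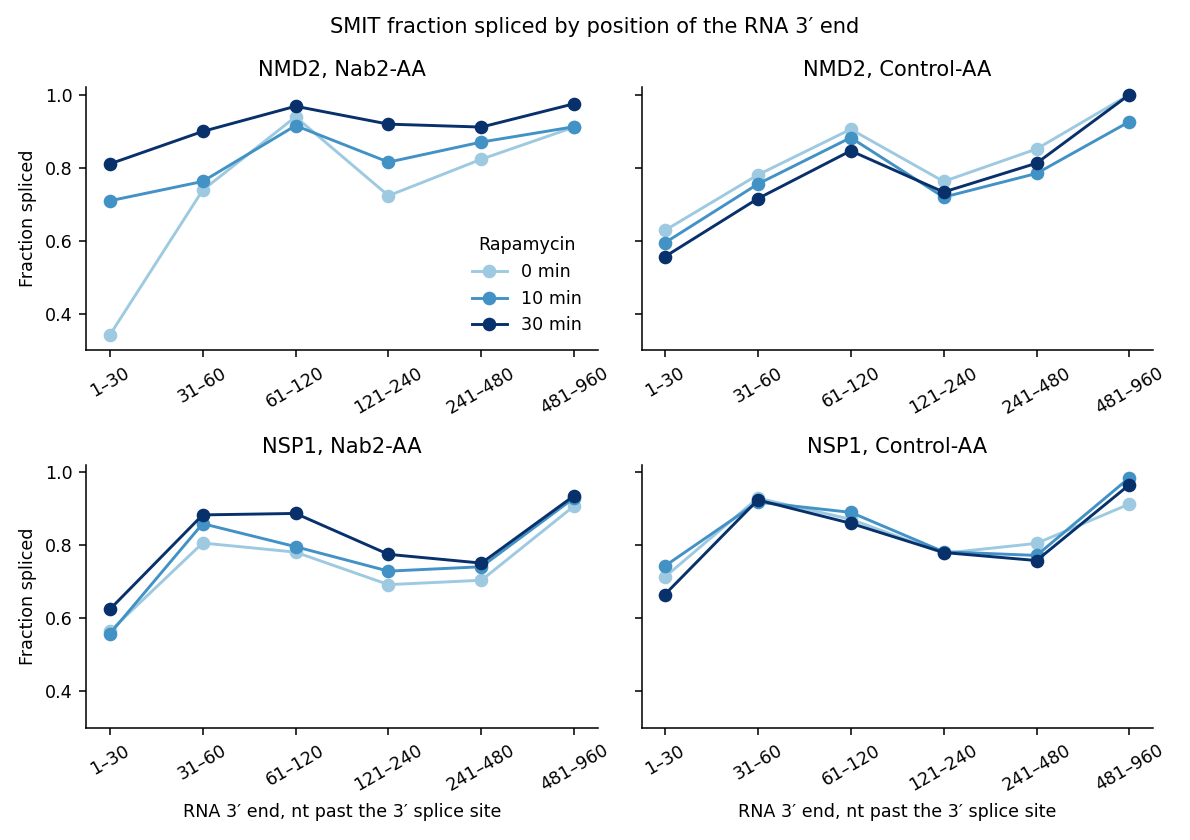
SMIT fraction spliced (y axis, no unit, axis from 0.3) in 6 windows of RNA 3′ end position, in nt past the 3′ splice site, for NMD2 above and NSP1 below, with Nab2-AA left and Control-AA right. Lines are 0, 10 and 30 min of rapamycin, 1 library each; the NMD2 curve of Nab2-AA at 0 min starts at 0.341, and the last NMD2 window holds as few as 17 reads.

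In Nab2-AA both genes also had more reads at the later times. NMD2 had 2391, 7585 and 11505 RPM (reads per 1000000 reads past the 3′ splice sites of all genes) in Nab2-AA at 0, 10 and 30 min, and 3027, 2831 and 2570 in Control-AA. NSP1 had 2480, 4575 and 6299 in Nab2-AA, against 3705, 3897 and 3241 in Control-AA. Both genes therefore took a growing share of the Nab2-AA libraries and a nearly steady or falling one of the Control-AA libraries. These are shares of a set of genes amplified with chosen primers, so more RNA of a gene and less of the others cannot be told apart, nor can fewer cells making an RNA and less RNA per cell.

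The growth lay mostly in spliced reads. The spliced RPM of NMD2 at 30 min were 5.76 times those at 0 min in Nab2-AA, place 1 of 57 genes, where the median gene had 1.15 times. Its unspliced reads were 1.62 times as many, close to the median of 1.67. For NSP1 the spliced RPM were 2.83 times as many (place 6) and the unspliced reads 1.79 times as many (place 26). In Control-AA the ratio of spliced reads was 0.798 for NMD2 and 0.853 for NSP1, and that of unspliced reads 1.04 and 0.983. In Nab2-AA both genes thus had a higher fraction at 30 min than at 0 min, while their unspliced RPM did not fall. The part that read numbers had in the change of the fraction was not tested.

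**Figure D3:**
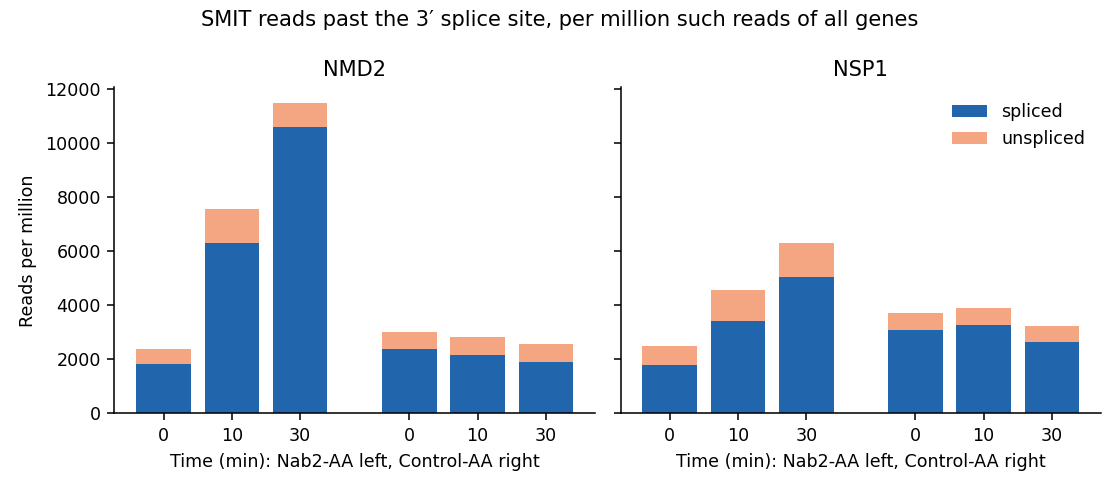
SMIT reads past the 3′ splice site of NMD2 and NSP1, in RPM (y axis), split into spliced and unspliced reads, at 0, 10 and 30 min of rapamycin (x axis), Nab2-AA left of Control-AA. Bars are single libraries; the spliced part of NMD2 reaches 10616 RPM in Nab2-AA at 30 min, against 1911 in Control-AA.

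The deletion strains are libraries that the choice of genes did not use, and they were tested. Npl3 is an SR-like protein that promotes splicing during transcription, Tho2 a subunit of the THO complex, Gbp2 an SR-like protein of mRNA export, Rtt103 a termination factor that binds the polymerase's C-terminal domain, Pub1 a poly(U)-binding protein and Htz1 the histone variant H2A.Z. NMD2 had levels of 0.911 and 0.949 in npl3Δ and 0.908 and 0.939 in tho2Δ, against 0.859 and 0.878 in the wild type. All 4 libraries of these strains lay above both wild-type libraries. By replicate number, 8 and 28 of 48 genes were above the wild type in npl3Δ and 29 and 37 in tho2Δ. The share of genes with libraries that separate in this way was not counted. NMD2 had 0.860 and 0.843 in gbp2Δ, 0.836 and 0.909 in rtt103Δ, 0.797 and 0.882 in pub1Δ and 0.835 and 0.920 in htz1Δ. In each of these 4 strains the libraries overlapped the wild type or lay on both sides of it.

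In order of the mean, NMD2 had 0.930 ± 0.0267 in npl3Δ, 0.923 ± 0.0219 in tho2Δ, 0.878 ± 0.0602 in htz1Δ, 0.873 ± 0.0516 in rtt103Δ, 0.852 ± 0.0123 in gbp2Δ and 0.839 ± 0.0601 in pub1Δ (SD, n = 2 each). The wild type, at 0.868 ± 0.0136 (SD, n = 2), stood between rtt103Δ and gbp2Δ. Each step between neighbours in this order was smaller than the larger SD of the pair, apart from that between gbp2Δ and the wild type. The interaction of strain and splicing state in edgeR's quasi-likelihood test gave NMD2 a log2 odds ratio of 1.14 ± 0.499 (SE) in npl3Δ, with an unadjusted p of 0.0452 and an adjusted p of 0.726. In tho2Δ it was 0.88 ± 0.498 (adjusted p = 0.500), place 13 of 48 genes, beside a median of 0.48 over all genes. Neither was called at an adjusted p under 0.05, and no gene was: 0 of 48 genes (0%) in each of the 6 strains, with 2 genes at an unadjusted p under 0.05 in npl3Δ and 4 in tho2Δ. These fits had no term for the replicate number. With the replicate number as a block edgeR called 3 of 48 genes in tho2Δ, and NMD2 (adjusted p = 0.130) and NSP1 (0.449) were not among them. In npl3Δ edgeR with the block gave NMD2 an adjusted p of 0.135 and called 0 of 48 genes. The result for npl3Δ was known before and is no independent support. The other 4 strains had log2 odds ratios of NMD2 between -0.44 and 0.15 by edgeR (adjusted p of 0.891 to 1).

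NSP1 did not share this pattern. Its levels were 0.681 and 0.826 in npl3Δ and 0.814 and 0.868 in tho2Δ, against 0.805 and 0.835 in the wild type. It had 0.741 and 0.729 in gbp2Δ, both below the wild-type libraries, and 0.731 and 0.832 in rtt103Δ, 0.695 and 0.842 in pub1Δ and 0.698 and 0.819 in htz1Δ. In gbp2Δ only 15 and 24 of 48 genes were above the wild type in replicates 1 and 2, and the share of genes with both libraries below was not counted. Replicate 1 was far below replicate 2 in npl3Δ, rtt103Δ, pub1Δ and htz1Δ. The means were 0.841 ± 0.0382 in tho2Δ, 0.781 ± 0.0714 in rtt103Δ, 0.769 ± 0.104 in pub1Δ, 0.759 ± 0.0855 in htz1Δ, 0.753 ± 0.102 in npl3Δ, and 0.735 ± 0.00870 in gbp2Δ (SD, n = 2 each). The wild type, at 0.820 ± 0.0218 (SD, n = 2), stood between tho2Δ and rtt103Δ, and no step between neighbours exceeded the larger SD of the pair. The edgeR log2 odds ratios of NSP1 ran from -0.53 ± 0.537 (SE) in gbp2Δ to 0.37 ± 0.537 in tho2Δ, with adjusted p-values of 0.824 to 1, and the value in tho2Δ ranged from 0.142 to 0.606 without 1 library. The interval of the NSP1 log2 odds ratio in npl3Δ, -1.44 to 0.67, still allows a change in either direction. The plot by strain shows both genes' libraries.

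**Figure D4:**
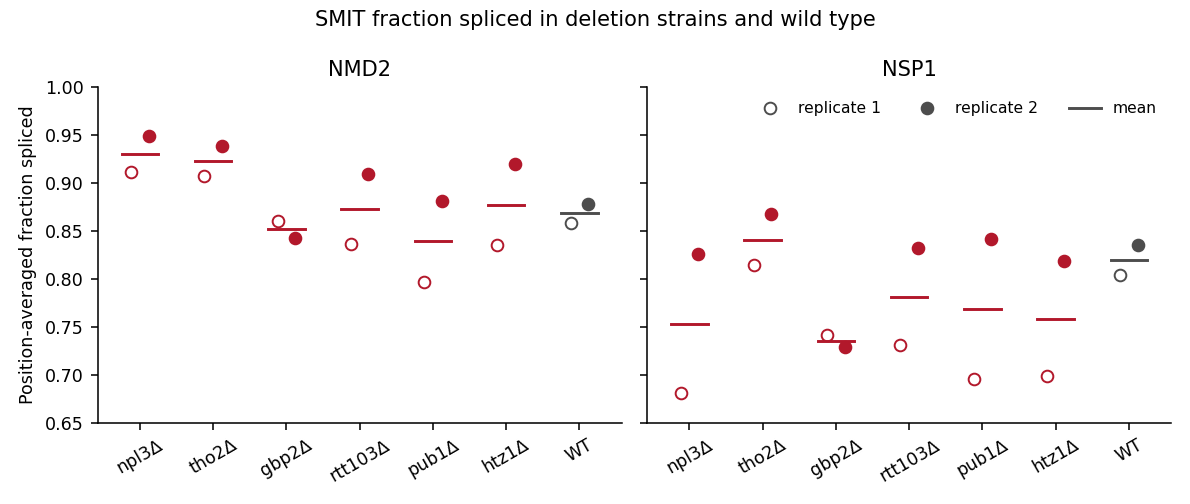
Position-averaged SMIT fraction spliced (y axis, no unit, axis from 0.65) of NMD2 and NSP1 in the 6 deletion strains and the wild type (x axis). Open points are replicate 1, filled points replicate 2 and bars the mean of 2 libraries; the npl3Δ and tho2Δ points of NMD2 lie at 0.908 to 0.949, above the wild type at 0.859 and 0.878.

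The library names of the deletion strains' replicates 1 share a prefix, those of all replicates 2, the wild type included, share another, and replicate 1 of the wild type stands alone. Replicate 2 was higher than replicate 1 in 39 to 44 of 48 genes in each group, by a median of 0.0447 in the wild type to 0.161 in npl3Δ. Within the replicates 2, NMD2 stood above the wild type by 0.0708 in npl3Δ and 0.0606 in tho2Δ, and by 0.0522 and 0.0488 within the replicates 1. NMD2 in npl3Δ stood at place 4 of 48 genes in replicate 1 and at place 10 in replicate 2, beside median changes over all genes of -0.0688 and 0.00441. In tho2Δ NMD2 stood at places 19 and 12, beside median changes of 0.0163 and 0.0292. There 29 and 37 of 48 genes were above the wild type. Within the replicates 2, NSP1 had a difference of -0.106 in gbp2Δ from the wild type, the lowest of 48 genes, while the other 5 strains differed from the wild type by -0.0163 to 0.0326. Within the replicates 1, NSP1 was lower than the wild type in 5 of 6 strains, with differences of -0.0633 in gbp2Δ to -0.124 in npl3Δ, and 0.00952 higher in tho2Δ. The median changes over all genes were also below 0 in these 5 strains, from -0.00744 in htz1Δ to -0.0688 in npl3Δ. Replicate 1 of the wild type lacks the prefix of the libraries it is set against here, so strain and prefix cannot be told apart.

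In npl3Δ NMD2 also gave more reads. It had 44421 and 26455 RPM in npl3Δ, against 8552 and 7917 in the wild type, or 5.19 and 3.34 times as many within each replicate number. That was place 2 of 48 genes, where the median gene had 1.20 times. Spliced reads were 5.70 and 3.69 times as many and unspliced reads 2.80 and 1.54 times. In tho2Δ the NMD2 RPM were 2.14 and 1.40 times those of the wild type. NSP1 had 1.73 and 1.32 times as many in npl3Δ (place 11) and 1.77 and 1.20 times in tho2Δ (place 19). In npl3Δ, as in Nab2-AA at 30 min, the higher levels of NMD2 stood beside larger shares of reads, and the shares were not tested.

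The position profiles of the deletion series differed between the genes. The NMD2 fraction had medians over 14 libraries of 0.662 in the first 30 nt, 0.655 from 31 to 60 nt, 0.874 from 61 to 120 nt and 0.937 from 481 to 960 nt. It was lower from 31 to 60 nt than in the first 30 nt in 12 of 14 libraries. The NSP1 fraction had medians of 0.485, 0.779, 0.727 and 0.882 in the same windows. It was lowest in the first 30 nt in 14 of 14 libraries and dipped from 61 to 120 nt, under the window before, in 13 of 14. The NMD2 fraction from 1 to 30 nt was 0.784 and 0.827 in npl3Δ, against 0.563 and 0.698 in the wild type. From 481 to 960 nt it was 0.945 and 0.984 in npl3Δ, against 0.894 and 0.917 in the wild type.

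Likeness was measured as Pearson's r of the levels over the 20 SMIT libraries, each gene centred within its series, among 48 genes used in both series. The genes most like NMD2 were IST1 (r = 0.706), MAF1 (0.565) and NSP1 (0.514), where the median over genes was 0.117. The genes most like NSP1 were SEC14 (0.874), RPL30 (0.856) and RPS27B (0.835), and the median over genes was 0.627. The likeness of SEC14 lay in the deletion series (r = 0.946) and was absent in the time course (-0.0911). RPL30 and RPS27B had r of 0.933 and 0.692 with NSP1 in the time course. NMD2 ranked only 34th among the genes like NSP1. Between NMD2 and NSP1, r was 0.661 over the 14 deletion libraries and 0.0926 over the 6 time-course libraries. Libraries of a series share primers, and in part the prefix of their names.

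Long reads measured the same introns without gene-specific primers. A read was counted as spliced when its alignment gap matched the intron within 10 nt at both ends, and as unspliced when it covered 90% of the intron. For NMD2, 11 of 23 and 7 of 13 reads were spliced in Nab2-AA, and 3 of 9 and 7 of 12 in Control-AA. These are 47.8% and 53.8% in Nab2-AA, inside the range of 33.3% to 58.3% in Control-AA. The mean was 50.8% ± 4.26 in Nab2-AA and 45.8% ± 17.7 in Control-AA (SD, n = 2 each). The edgeR log2 odds ratio was 0.15 ± 0.928 (SE, adjusted p = 0.967), with an interval from -1.67 to 1.97 from 36 reads in Nab2-AA and 21 in Control-AA.

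For NSP1, 74 of 136 and 28 of 45 reads were spliced in Nab2-AA, and 33 of 45 and 36 of 55 in Control-AA. Both Nab2-AA libraries, at 54.4% and 62.2%, lay below both Control-AA libraries, at 73.3% and 65.5%. The means were 58.3% ± 5.52 in Nab2-AA and 69.4% ± 5.57 in Control-AA (SD, n = 2 each), a difference of -11.1 percentage points. A two-sided exact permutation test gave p = 0.3333, the smallest that 2 libraries against 2 allow. The edgeR log2 odds ratio was -0.78 ± 0.422 (SE), with an unadjusted p of 0.0652 and an adjusted p of 0.269. Of all introns, 14 of 194 were called (7.22%), each of them lower in Nab2-AA, and neither NMD2 nor NSP1 was among them. The 14 calls became 3 or 4 without a Nab2-AA library (replicate 1 or 2), 2 without Control-AA replicate 2, 2 with DESeq2, 0 with limma, and 0 of 176 without chimeric reads and those ending beyond the gene. The median log2 odds ratio over 194 introns was -0.55, so NSP1 stood a little below the median and NMD2 above it, at place 35. Of the 194 introns 147 had a log2 odds ratio below 0, so the lower share of NSP1 in Nab2-AA is not particular to it.

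**Figure D5:**
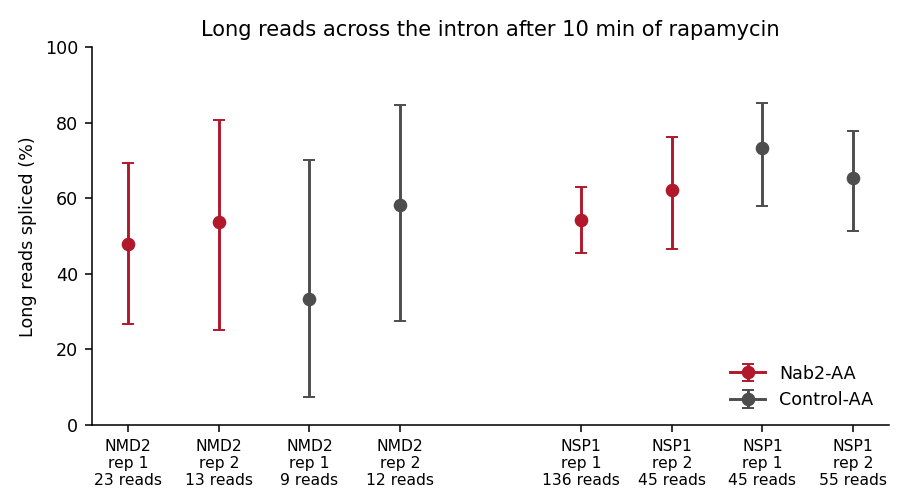
Share of long reads across the intron that were spliced, in percent (y axis), for each library of Nab2-AA and Control-AA after 10 min of rapamycin (x axis), NMD2 left and NSP1 right. Bars are 95% exact binomial intervals and numbers under the axis are reads; NSP1 lies at 54.4% and 62.2% in Nab2-AA, below 73.3% and 65.5% in Control-AA.

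The assays can be set side by side at 10 min, with their scales apart. The SMIT level of NSP1 was 0.750 in Nab2-AA and 0.809 in Control-AA, so at that time SMIT too had Nab2-AA below Control-AA. The positive change of NSP1 in SMIT was relative to the strain's own 0 min library, and no long reads at 0 min were analysed here. The SMIT level of NMD2 at 10 min was 0.850 in Nab2-AA and 0.781 in Control-AA. Long reads also ended much farther along: the median 3′ end lay 1558 to 1767 nt past the 3′ splice site of NMD2 and 1605 to 1975 nt past that of NSP1, beyond most SMIT ends. Among NSP1 reads that ended within 1000 nt, 19 of 37 were spliced in Nab2-AA (51.4%) and 14 of 22 in Control-AA (63.6%). Among those that ended farther on, 83 of 144 (57.6%) and 55 of 78 (70.5%) were. The authors' deposited table of long-read fractions gave NMD2 0.480 and 0.500 in Nab2-AA, against 0.300 and 0.500 in Control-AA. For NSP1 the authors' deposited table gave 0.517 and 0.609 in Nab2-AA, against 0.723 and 0.644 in Control-AA.

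Shares of reads at 10 min can be set side by side between the strains. Long-read shares are per 1000 reads that spanned an intron and were counted as spliced or unspliced. NMD2 had 1.16 ± 0.379 in Nab2-AA, against 1.05 ± 0.0518 in Control-AA, while the NSP1 values were 5.10 ± 0.230 in Nab2-AA and 5.02 ± 0.556 in Control-AA (SD, n = 2 each). The SMIT RPM at 10 min were 7585 in Nab2-AA and 2831 in Control-AA for NMD2, and 4575 in Nab2-AA and 3897 in Control-AA for NSP1. NMD2 thus had a larger share in Nab2-AA in SMIT, while its long-read shares differed by less than their spread.

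Reads that run on past a gene were more common in Nab2-AA over all genes, and neither NMD2 nor NSP1 was called for them. A read was counted as ending beyond the gene if it stopped over 250 nt downstream of the stop codon. At NMD2, 0 of 36 reads did so in Nab2-AA, which allows a share of up to 8.33%. In Control-AA 2 of 21 did, both in replicate 2. The farthest NMD2 reads of Nab2-AA ended 2644 and 2261 nt past the 3′ splice site, short of the 3264 coding nt there. No Nab2-AA read came to the stop codon of NMD2, so the 0 cannot show whether transcription runs on past this gene. At NSP1, 7 of 181 reads did so in Nab2-AA and 4 of 100 in Control-AA, or 3.32% ± 1.55 and 3.64% ± 5.14 (SD, n = 2 each). With edgeR, 60 of 194 genes (30.9%) had a higher share in Nab2-AA, and 1 a lower one. These 60 became 25 without Nab2-AA replicate 1, 39 and 35 without Control-AA replicate 1 and 2, and 21 with DESeq2. NSP1 was not called (log2 odds ratio -0.05 ± 0.910, adjusted p = 1), with an interval from -1.84 to 1.73 beside a median of 1.44 over all genes. NMD2 was not called either (adjusted p = 0.236 by edgeR), and with 0 reads in Nab2-AA it has no fold.

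Chimeric reads were found at neither gene. These are reads across the intron whose aligned span overlaps the next upstream gene in the same orientation by 50 nt or more. At NMD2 there were 0 of 36 in Nab2-AA and 0 of 21 in Control-AA, which allows up to 8.33% and 14.3%. At NSP1 there were 0 of 181 and 0 of 100, which allows up to 1.66% and 3%. Over all introns 2.76% and 3.84% of reads were chimeric in Nab2-AA, against 0.890% and 0.866% in Control-AA. The nearest upstream gene on the same strand is IRE1, 2487 nt away from NMD2, and MHP1, 338 nt away from NSP1. Downstream, NMD2 faces PTC7 on the other strand across 148 nt and NSP1 faces NUP192 across 374 nt.

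The NSP1 long reads held a second alignment gap inside the coding exon. It spanned chromosome X from 366788 to 367073, 286 nt in length, and began 886 nt past the 3′ splice site. Of reads that crossed this stretch, 100 of 101 and 28 of 29 had the gap in Nab2-AA, and 33 of 34 and 42 of 43 in Control-AA. The gap was present in nearly all reads of both strains. Its length was 286 nt in 141 of 203 reads and ranged from 273 to 297 nt. Whether the strains' NSP1 gene lacks this stretch or the reads skip it was not tested, and 95% of the SMIT ends of NSP1 lay within 583 nt in every library.

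Other intron genes of RNA processing and export give a scale. Of 12 such genes, NMD2 and NSP1 included, 4 had SMIT values and 8 had long reads. YRA1, an mRNA export adaptor, had a difference of changes in SMIT of 0.00245 at 30 min and DBP2, an RNA helicase, 0.00108. In long reads 0 of 8 were called by edgeR, beside 14 of 194 introns (7.22%), and the median log2 odds ratio was -0.39, against -0.55 over all 194 introns. LSM2, MPT5, MUD1 and SMD2 had log2 odds ratios of 0.13, 1.24, -0.19 and -2.73 from 5 to 143 reads per strain, and MTR2, SUS1, SRC1 and LSM7 are not among the introns used here. YRA1 was spliced in 12.0% ± 0.431 of reads in Nab2-AA and 16.3% ± 2.86 in Control-AA, and DBP2 in 81.7% ± 4.59 and 88.6% ± 2.69 (SD, n = 2 each). For reads ending beyond the gene 1 of the 8, YRA1, was called higher (log2 odds ratio 1.41, edgeR adjusted p = 1.83e-07), beside 60 of 194 genes (30.9%).

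The authors' deposited tables of a score per gene, named deltaSMIT, do not state scale or direction. In the authors' deposited table NMD2 had -0.428 and -0.379 in Nab2-AA at 10 and 30 min and -0.246 and -0.178 in Control-AA. NSP1 had 0.206 and 0.251 in Nab2-AA, against -0.128 and 0.126 in Control-AA in the authors' deposited table. Over 55 genes the authors' deposited score and the change of fraction had the same sign in 49 genes for Nab2-AA at 10 min. At 30 min 44 genes did so, while Control-AA had 38 genes at 10 min and 42 at 30 min. Pearson's r between score and change was above 0 in each comparison, from 0.404 to 0.637. NMD2 was an exception in Nab2-AA at both times, with a score below 0 where its fraction rose. NSP1 was an exception in Control-AA at 30 min, with a score of 0.126 beside a change of -0.0299. Read in the direction that most genes share, the authors' deposited score of NMD2 thus goes against the rise described here. The cause of these differences was not tested. For deletion strains the authors' deposited tables gave NMD2 0.251 and 0.233 in npl3Δ and 0.263 and 0.250 in tho2Δ, and NSP1 -0.654 and -0.0971 in npl3Δ and 0.252 and 0.153 in tho2Δ. Between 8 and 32 genes of a table shared an identical score with another gene, the NMD2 score in Nab2-AA at 30 min among them. The NMD2 score in Control-AA at 10 min was shared with 3 other genes, and the NSP1 score of -0.654 in npl3Δ with 4.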

How the data were processed

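NMD2, NSP1 and the gene list were chosen with earlier results of these data known. The deposited SMIT files hold, per the file headers, counts of reads at each 3′ end position of a gene and the fraction spliced, with a corrected fraction beside it. For NMD2 and NSP1 the corrected odds were the raw odds divided by 1.22 to 2.27, a factor fixed per gene and library. The authors' difference tables hold a score, the authors' deposited long-read table a fraction, and the deposited alignments are read coordinates. HISAT2 2.1.0, cutadapt 1.9.1, minimap2 2.17, SAMtools 1.9, bedtools 2.29.2 and sacCer3 are named in the submitters' processing notes, without role or order. Removal of PCR copies is not stated, so counting intervals cover counting error only.

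Genes needed 20 reads in every library and positions reaching 200 nt, which left 48 of 53 genes in the deletion series and 57 of 59 in the time course. Introns (194 of 284 listed genes) were taken from alignment gaps of 50 to 1100 nt with at least 5 reads in at least 2 libraries. Gene spans and names came from the RefSeq gene table (R64). Strain by splicing state was tested with edgeR 4.0.16 (quasi-likelihood, R 4.3.3) on the deposited counts, with library terms, and p-values were adjusted over all genes (Benjamini-Hochberg, threshold 0.05). Intervals of log2 odds ratios are the estimate ± 1.96 SE. DESeq2 1.42.0 and limma 3.58.1 were alternatives, and the fits were tested on simulated data. In the deletion series, libraries with the same replicate number deviated together in each of 21 pairs (r of 0.129 to 0.912, median 0.739). In the pairs with the wild type r was only 0.129 to 0.216. The main fit had no term for the replicate number, and a fit with that number as a block was an alternative. Always named were NMD2 and NSP1; others were the 3 genes most like each, the 2 above and below each in rank, and 12 listed genes as measured. Tables and figures were made in Python 3.11.15 (pandas 2.3.3, matplotlib 3.10.9, numpy 2.4.6, SciPy 1.17.1).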

Additional observations from a re-analysis of the deposited data

Results flagged for a closer look

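NMD2 moved in opposite directions in the anchor-away strains: its SMIT fraction was above the 0 min value at both later times in Nab2-AA and below it at both in Control-AA, with a difference of changes of 0.184 at 30 min. NSP1 had the same signs, with a difference of 0.0911 at 30 min. At 10 min its changes were 0.0170 in Nab2-AA (counting interval -0.00808 to 0.0421) and -0.0118 in Control-AA (-0.0355 to 0.0119). Both of these intervals included 0. Both time points share the 0 min library, each point is 1 library, the genes were chosen for this contrast, and the difference was not tested.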

How the results depend on the processing

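The differences of changes in the time course kept their sign under all 7 alternatives, at 0.160 to 0.200 for NMD2 and 0.0707 to 0.103 for NSP1 at 30 min. The median level of NSP1 over SMIT libraries was 0.715 with the authors' corrected fraction. No alternative called NMD2 or NSP1 in a deletion strain or in long reads. In deletion strains DESeq2 called 1 gene each in rtt103Δ and tho2Δ. A block for the prefix of the library names called 1 in gbp2Δ and 2 in tho2Δ, and the replicate block called 3 in tho2Δ. Each strain fitted with the wild type alone gave 1 in tho2Δ and 2 in pub1Δ. Neither block changed any other call in this series. NMD2 in rtt103Δ turned to 0.136 with the corrected fraction.

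Leaving out 1 library at a time gave log2 odds ratios of NMD2 from 0.972 to 1.31 in npl3Δ, 0.772 to 0.995 in tho2Δ, -0.503 to 0.0511 in gbp2Δ, -0.207 to 0.0599 in rtt103Δ and -0.256 to 0.562 in htz1Δ. For NSP1 they were -0.836 to 0.0631 in npl3Δ, -0.916 to 0.223 in pub1Δ and -0.731 to 0.00816 in htz1Δ. The sign of each turned value rested on 1 library of that strain (replicate 1 for NSP1, replicate 1 in rtt103Δ and replicate 2 in gbp2Δ and htz1Δ for NMD2). No gene was called in any of these.

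In long reads the 14 calls became 2 with DESeq2, 0 with limma, 0 with the replicate block, 0 of 176 once reads that were chimeric or ended beyond the gene were removed, and 2 to 11 without 1 library. Of those at 0, an unadjusted p under 0.05 was reached by 32 introns with limma, 19 with the block and 6 without such reads. The same replicate numbers did not deviate together there (r = -0.0797). NMD2 ranged from -0.471 (without Control-AA replicate 1) to 0.990 and NSP1 from -1.09 to -0.434 without 1 library. For reads ending beyond the gene, 61 calls became 35 at 500 nt, 21 with DESeq2, 39 with the replicate block and 25 to 49 without 1 library. NSP1 turned to 1.59 at 500 nt, 0.0847 with DESeq2 and 0.154 with the replicate block, and ranged from -0.943 to 4.71 without 1 library. NMD2, with 0 such reads in Nab2-AA, had fitted values from -4.75 to 0.0715, which depend on the prior count and are no estimates of a fold. Neither was called in these. The cause of these changes was not tested. NMD2 had 9 to 23 long reads per library, which limits what its shares can show.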
